A study of Phyllostachys violascens with 6 samples.

Results

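The unigenes examined here are 4 plastid sequences of the bamboo *Phyllostachys violascens* cv. Viridisulcata that carry *atpA*, *ndhD*, *ndhF* and *rbcL*, out of 63776 unigenes in the count table. They were chosen by name from the study's list of unigenes that differ between the green sulcus and the yellow culm. That list was made from the same 6 libraries, so the difference between the tissues is described below without a test. RNA was taken from the longest internodes of wild type plants of this cultivar, either from the green sulcus, a groove along the internode, or from the yellow culm, with 3 biological replicates each. Colors are those of the sample labels, and the study's text does not always give the colors of culm and sulcus the same way round. The reads were assembled without a genome, so the unigenes have no genome position here, and their names rest on matches to sequences of other plants.

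Chloroplasts keep a small genome of their own, which codes for part of the machinery of photosynthesis, while the nucleus codes for the rest. The plastid ATP synthase turns the proton gradient across the thylakoid membrane into ATP, and *atpA* codes for the alpha subunit of its catalytic head. The plastid NAD(P)H dehydrogenase-like complex (NDH) passes electrons back to plastoquinone in cyclic electron flow around photosystem I, and *ndhD* and *ndhF* code for membrane subunits of it. *rbcL* codes for the large subunit of Rubisco, the enzyme that fixes CO2, whose small subunit is coded in the nucleus. Many plastid genes are transcribed together from operons, so a contig of plastid RNA can span several genes.

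This was the case for some of these unigenes. The *atpA* unigene (Cluster-4806.17399) also carried domains of the ATP synthase membrane subunits a, b and c, so its reads stand for a run of ATP synthase genes and not for *atpA* alone. The *ndhD* unigene (Cluster-4806.8299) also carried a cytochrome c assembly domain, which in plastids is that of *ccsA*. For the *ndhF* unigene (Cluster-4806.31046) and the *rbcL* unigene (Cluster-4806.18479) the study's annotation gives no domain of another plastid gene. The kit is not stated to keep the strand, so reads from an antisense transcript of the same stretch cannot be told apart. All 4 unigenes had whole counts in all 6 libraries, although 10.7% to 12.5% of the entries per library were fractions.

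In 3 of 3 same-numbered pairs of libraries, the culm was below the sulcus for all 4 unigenes. Ratios were averaged over the pairs on the log2 scale and turned back into percents. By this mean, the culm held 13.9% of the sulcus level for *atpA*, 14.4% for *ndhD*, 27.8% for *ndhF* and 23.4% for *rbcL*. Levels are given as CPM, the count divided by the total count of the library and scaled to 1000000, with totals between 16405396 and 22505338. All 4 passed the filter on low counts that left 31936 unigenes, and enough counts in the sulcus alone would have let them pass. For 4 of 4 the lowest sulcus library lay above the highest culm library, which was so for 2.22% of the unigenes kept. For 4 of 4 the culm also lay under 50 percent of the sulcus in every pair, against 0.144% of the unigenes kept. Both counts follow from how the unigenes were chosen. Fewer green cells and less plastid RNA per cell cannot be told apart in RNA of whole tissue.

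**Figure D1:**
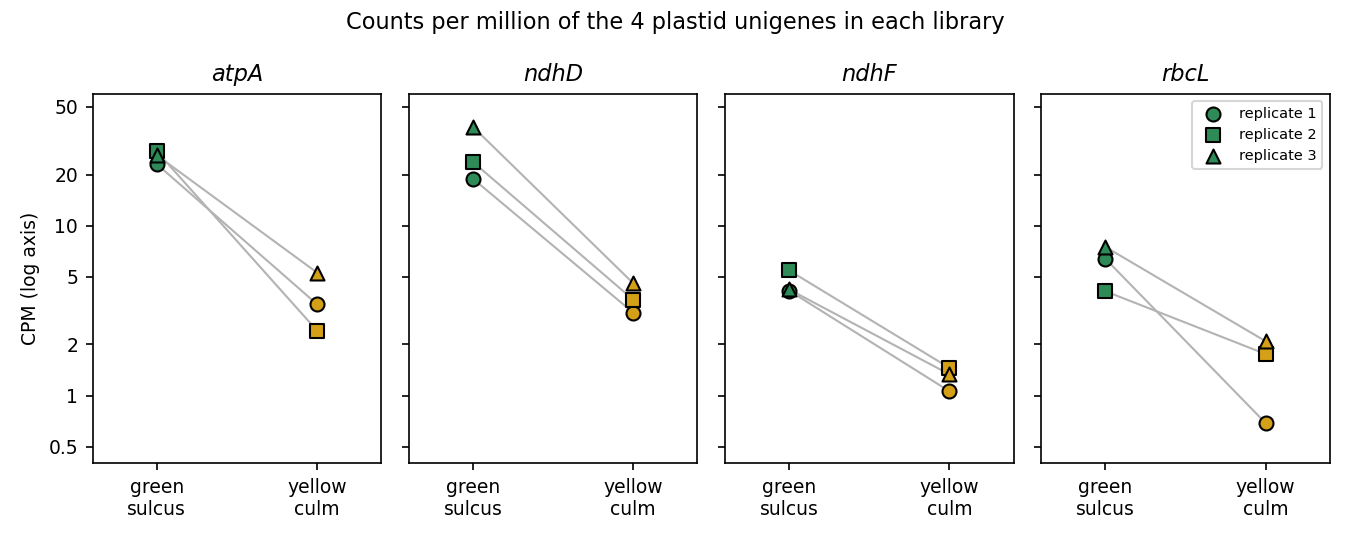
Level in CPM (log axis) of *atpA*, *ndhD*, *ndhF* and *rbcL* in each of the 3 sulcus and 3 culm libraries; lines join libraries with the same replicate number. Every line falls, and no culm point reaches the sulcus points of its unigene, with 23.04 to 27.4 CPM against 2.41 to 5.29 for *atpA*.

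The ATP synthase unigene was the steadiest of the 4 in the sulcus. The sulcus libraries, in the order of replicates 1 to 3, held 378, 532 and 481 reads of *atpA*, which are 23.04, 27.4 and 25.99 CPM. The culm libraries held 65, 48 and 119 reads, or 3.44, 2.41 and 5.29 CPM. The sulcus mean was 25.5 ± 2.21 CPM and the culm mean 3.71 ± 1.46 CPM (SD, n = 3 per tissue), so that the coefficient of variation was 8.69% among sulcus libraries and 39.3% among culm libraries. Culm replicate 2 was the lowest library and culm replicate 3 the highest of its tissue. The log2 ratio of culm to sulcus was −2.74, −3.51 and −2.30 in pairs 1 to 3. The 95% exact binomial intervals of pair 2 (−3.96 to −3.08) and pair 3 (−2.60 to −2.005) did not overlap. These intervals cover counting error only and not the spread between plants, and reads copied by PCR are not independent molecules, so they are given as a description.

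The NDH unigene *ndhD* fell by a similar amount, and more evenly. The sulcus libraries held 310, 461 and 707 of its reads and the culm libraries 58, 73 and 103. Scaled to library size, the sulcus levels were 18.9, 23.7 and 38.2 CPM and the culm levels 3.07, 3.66 and 4.58 CPM. Replicate 3 was the highest and replicate 1 the lowest in both tissues. The means were 26.9 ± 10.05 and 3.77 ± 0.758 CPM (SD, n = 3 each), and the log2 ratios in pairs 1 to 3 were −2.62, −2.70 and −3.06. The counting intervals of these 3 ratios overlapped.

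The other NDH unigene, *ndhF*, had the smallest mean fall over the 3 pairs, although *rbcL* fell less in pair 2. Without replicate 1 the mean log2 ratio was −1.78 for *ndhF* and −1.54 for *rbcL*, which turns their order. Its reads numbered 68, 106 and 78 in the sulcus libraries and 20, 29 and 30 in the culm libraries. These are 4.14, 5.45 and 4.21 CPM for the sulcus against 1.06, 1.45 and 1.33 CPM for the culm. Replicate 2 was the highest in both tissues, and the spread within a tissue was small, with a coefficient of variation of 16% for the sulcus and 15.8% for the culm. The log2 ratios of *ndhF* were −1.97, −1.91 and −1.66 in pairs 1 to 3. They spanned 0.31 in all, the narrowest range of the 4 unigenes, although each rests on 20 to 30 culm reads and has a counting interval wider than that range (−2.77 to −1.23 in pair 1).

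The Rubisco unigene *rbcL* was the least even. The sulcus libraries held 105, 80 and 139 of its reads, against 13, 35 and 47 for the culm libraries. As CPM, the sulcus levels were 6.40, 4.12 and 7.51 and the culm levels 0.689, 1.76 and 2.09. Sulcus replicate 2 and culm replicate 1 were each the lowest library of their tissue, so the low values fell in different pairs. The log2 ratio was −3.22 in pair 1, −1.23 in pair 2 and −1.85 in pair 3, a range of 1.99. The counting interval of pair 1 (−4.17 to −2.38) did not overlap that of pair 2 (−1.85 to −0.64). Of the sum of squares of its log2 CPM, 77.8% lay between the tissues, against 94.3% to 96.0% for the other 3 unigenes.

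**Figure D2:**
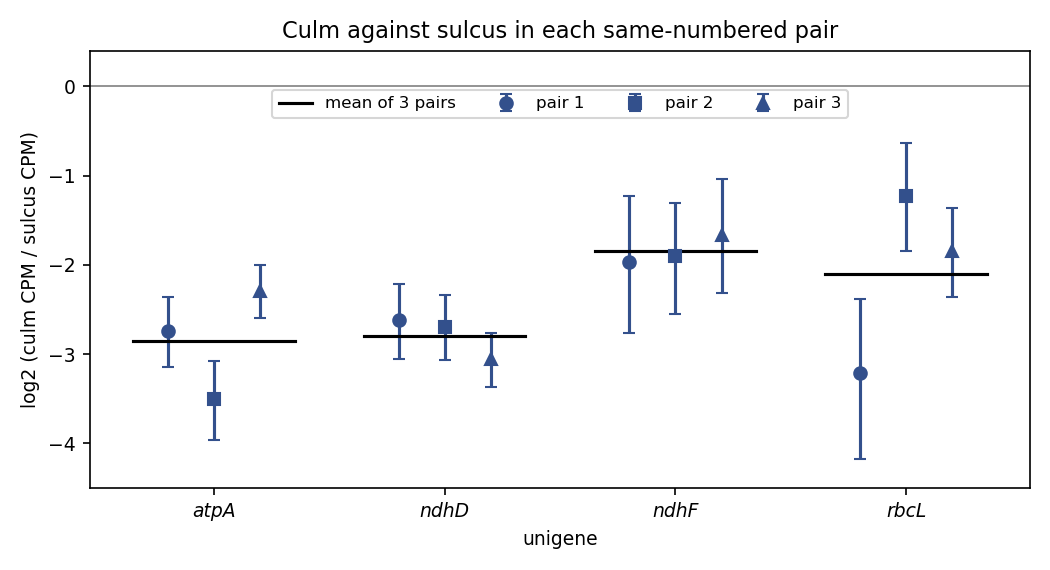
Log2 ratio of culm CPM to sulcus CPM for each unigene in pairs 1, 2 and 3; bars are 95% exact binomial intervals (counting error only) and black lines are means of 3 pairs. The means are −2.85 for *atpA*, −2.79 for *ndhD*, −1.85 for *ndhF* and −2.10 for *rbcL*; all 12 points and their bars lie below 0.

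The fit of edgeR across all unigenes kept gave similar sizes. The log2 fold change of culm against sulcus was −2.79 (standard error 0.28) for *atpA*, −2.83 (0.32) for *ndhD*, −1.83 (0.27) for *ndhF* and −1.98 (0.46) for *rbcL*. With the replicate number as a block these were −2.81 (0.20), −2.80 (0.16), −1.83 (0.24) and −1.998 (0.35). Over all unigenes with counts above 0 in every library the median of the mean log2 ratio was 0.0042. Of these 31716 unigenes, 5 had a lower mean ratio than *atpA*, 7 a lower one than *ndhD*, 18 than *rbcL* and 29 than *ndhF*. These ranks follow from how the unigenes were chosen. Unigenes kept with a 0 in any library were not ranked, such as a plastid match with an edgeR log2 fold change of −4.86.

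Whether NDH, ATP synthase and Rubisco fell alike was then read from the differences between the unigenes' log2 ratios, in which the scaling of the libraries cancels. The mean falls of *atpA* and *ndhD* were close, with a difference of −0.056 ± 0.79 (mean ± SD over 3 pairs), but those of single pairs were not. *atpA* fell more than *ndhD* in pair 2, by 0.81 (95% interval of the difference −1.40 to −0.23), and less in pair 3, by 0.76 (0.33 to 1.195). The mean falls of the 2 NDH unigenes lay further apart. *ndhD* fell more than *ndhF* in 3 of 3 pairs, by 0.65, 0.79 and 1.401 on the log2 scale, which is 0.95 ± 0.40 and a ratio of 1.93. The counting interval of the difference lay below 0 in 2 of 3 pairs and held 0 in pair 1 (−1.52 to 0.26). *atpA* likewise fell more than *ndhF* in 3 of 3 pairs, by 1.004 ± 0.52, with an interval below 0 in 1 of 3 pairs.

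Rubisco had no fixed place in this order. *rbcL* fell more than *atpA*, *ndhD* and *ndhF* in pair 1 and less than all of them in pair 2. In pair 3 it fell less than *atpA* and *ndhD* and more than *ndhF*. Much of this order lay within counting error. The 95% interval of the difference held 0 against *atpA* and *ndhD* in pair 1 and against *ndhF* in pair 2. In pair 3 it held 0 against *atpA* and *ndhF*. The differences of *rbcL* were 0.75 ± 1.4 from *atpA*, 0.70 ± 1.12 from *ndhD* and −0.25 ± 0.96 from *ndhF* (*rbcL* minus the other, mean ± SD over 3 pairs), each smaller than its SD. Only 13 reads stand behind the culm level of *rbcL* in pair 1. Without pair 2 its mean log2 ratio was −2.53. These comparisons use the contrast on which the unigenes were chosen and are given without a test.

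Shares within a library restate the same counts on another scale and are no separate evidence. Of the summed reads of the 4 unigenes, *ndhF* took 7.90%, 8.99% and 5.55% in the sulcus libraries, against 12.8%, 15.7% and 10.03% in the culm libraries. The shares of *ndhF* did not overlap between the tissues. The share of *atpA* was 34.2% to 45.1% in the sulcus libraries and 25.9% to 41.7% in the culm libraries. For *ndhD* these were 36.005% to 50.3% and 34.4% to 39.5%, and for *rbcL* 6.79% to 12.2% and 8.33% to 18.9%. The shares of these 3 overlapped between the tissues. The sum of the 4 unigenes itself fell evenly. The sulcus sums were 52.5, 60.7 and 75.9 CPM and the culm sums 8.26, 9.28 and 13.3 CPM, with log2 ratios of −2.67, −2.71 and −2.51.

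**Figure D3:**
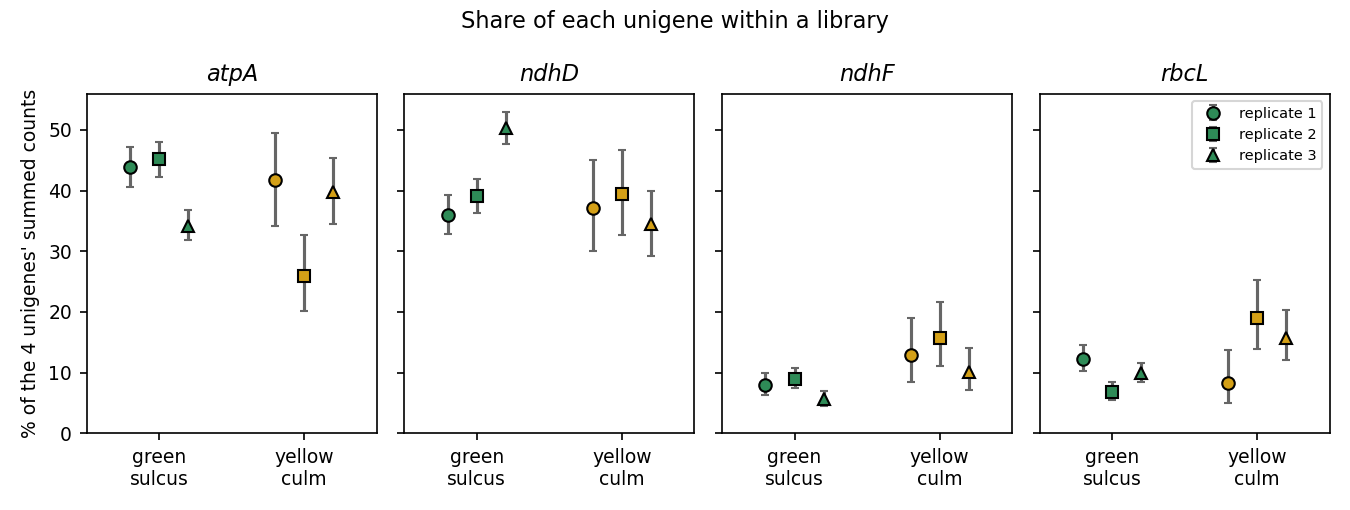
Percent of the summed counts of the 4 unigenes that each took in a library; bars are 95% Wilson intervals (counting error only). The *ndhF* shares are 5.55% to 8.99% in sulcus and 10.03% to 15.7% in culm, while those of the other 3 unigenes overlap between the tissues.

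Differences between the replicate numbers were not used in choosing the unigenes and could be tested, although a choice on the tissue difference also favors a small spread within a tissue. With the tissue in the model, 1 of 4 unigenes differed between replicate numbers at an adjusted p under 0.05, against 30.3% of all unigenes kept. This was *ndhD* (adjusted p = 0.0240 from edgeR's quasi-likelihood test), the unigene that was highest in replicate 3 and lowest in replicate 1 of both tissues. The adjusted p was 0.424 for *atpA*, 0.459 for *ndhF* and 0.435 for *rbcL*. The *ndhD* call was lost without sulcus replicate 2 (adjusted p = 0.0750), sulcus replicate 3 (0.375) or culm replicate 2 (0.0575) and with DESeq2 (0.0581), and *rbcL* was called without sulcus replicate 1 (0.00754). Within the tissues the unigenes varied together only weakly. The correlation of their deviations from the tissue means over the 6 libraries, a description only, since same-numbered libraries also deviate together across all unigenes, had a median r of 0.22 over the 6 pairs of unigenes, from −0.039 for *atpA* and *ndhF* to 0.57 for *ndhD* and *rbcL*. It rested on single replicate numbers, since the median was −0.022 without replicate 1 and 0.84 without replicate 2.

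The study's list holds 2 more NDH unigenes, both lower in the culm in 3 of 3 pairs without overlap between the tissues, against 2.22% of the unigenes kept, of which *ndhB* is not one. The *ndhK* unigene (Cluster-4806.36199), which codes for a subunit of the stromal arm and also carries domains of other NDH subunits, had 57, 84 and 114 reads in the sulcus libraries and 10, 17 and 44 in the culm libraries. Its log2 ratio was −2.24 ± 0.54 (SD, n = 3 pairs), between those of *ndhD* and *ndhF*. The *ndhB* unigene (Cluster-12709.0), a membrane subunit, had 6, 8 and 4 reads in the sulcus libraries and 0 in each culm library. It did not pass the filter, and against a floor of 3 counts over the culm libraries it was at least 6.77-fold lower there. Since the study listed these unigenes for a difference in the same libraries, their direction and lack of overlap are no independent evidence.

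Most of the other plastid sequences that the study listed were lower as well. Of 17 such unigenes, *ndhK* and *ndhB* included, 15 passed the filter. In the culm 16 of the 17 were lower in 3 of 3 pairs and without overlap between the tissues, against 2.22% of the unigenes kept. Being listed for this contrast favors both. The median mean log2 ratio was −2.39 over the 14 with counts above 0 in every library. Those 14 ran from −3.78 for *psbM*, a small photosystem II subunit, to 1.81. The highest value belonged to an *accD*-like unigene (Cluster-4806.10156), matched to a carboxyl transferase subunit of acetyl-CoA carboxylase, with 2, 7 and 8 reads in the sulcus libraries and 17, 14 and 29 in the culm libraries. Its plastid origin rests on the annotation alone and was not tested. It was the single member of that list higher in the culm, in 3 of 3 pairs. The log2 ratio of the summed CPM of the list was −2.65, −2.54 and −2.49 in pairs 1 to 3, close to the fall of the 4 unigenes in each pair. Abundant unigenes weigh most in this sum. In sulcus replicates 1 to 3, *psbM* alone held 71.1, 65.7 and 139.1 of 214.9, 201.8 and 295.0 CPM.

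The summed level of nuclear antenna unigenes is given beside these. The 4 antenna unigenes, which code for light-harvesting chlorophyll a/b proteins and mark green tissue, were likewise listed by the study for a difference in these libraries. They summed to 5754, 4832 and 2723 CPM in the sulcus libraries and to 1017, 1357 and 2356 CPM in the culm libraries. For 3 of 4 the culm was lower in 3 of 3 pairs and without overlap, against 2.22% of the unigenes kept. The log2 ratio of their sums was thus −2.50 in pair 1, −1.83 in pair 2 and −0.21 in pair 3, where that of the 4 plastid unigenes was −2.51. The difference between these 2 sums in pair 3 rests on 1 library of each tissue and was not tested. A single antenna unigene held 1838 of the 2723 CPM in sulcus replicate 3. In pair 3 the log2 ratio was −3.06 for *ndhD*, −1.66 for *ndhF* and −0.65 for *psaA* of photosystem I. The 4 antenna unigenes ran from −0.53 to 0.003 there, while the aldolase and GLO1 unigenes named below had −2.45 and −1.90. The difference was thus not read as one of all nuclear against all plastid unigenes. How fully the libraries captured plastid RNA is not stated either. A further 3 unigenes, grouped here under carbon fixation and photorespiration, were listed by the study as well. A role of theirs in plastid carbon fixation was not shown. The culm was lower in every pair, and for 1 of 3 the tissues did not overlap, against 2.22% of the unigenes kept. That 1, a malate dehydrogenase, did not pass the filter and is not among the unigenes kept. Fructose-bisphosphate aldolase (Cluster-4806.34116, matched to a cytosolic form) had sulcus levels of 4.51, 3.499 and 25.2 CPM and culm levels of 3.66, 2.76 and 4.62 CPM. GLO1 (Cluster-4806.31237), a glycolate oxidase of photorespiration, had sulcus levels of 2.73, 3.70 and 15.8 CPM and culm levels of 2.01, 2.06 and 4.23 CPM. Both were far higher in sulcus replicate 3 than in any other library, and their tissues overlapped. A malate dehydrogenase unigene (Cluster-4806.45082) had 2, 7 and 2 reads in the sulcus libraries and 0 in each culm library, which makes it at least 4.14-fold lower there against the same floor.

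**Figure D4:**
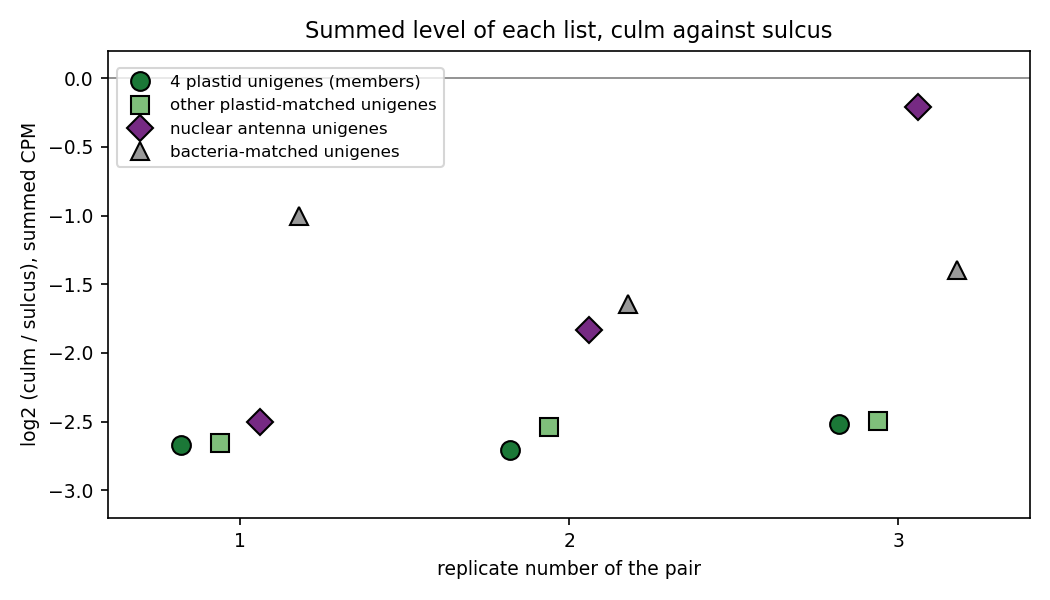
Log2 ratio of the summed CPM in culm to that in sulcus for 4 lists of unigenes in pairs 1, 2 and 3. The 4 plastid unigenes stay between −2.71 and −2.51 and the other plastid-matched unigenes between −2.65 and −2.49, while the antenna unigenes run from −2.50 in pair 1 to −0.21 in pair 3.

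The study also listed sequences matched to sources outside the chloroplast for a difference in these libraries. It matched 10 of its listed unigenes to bacteria. Their summed CPM was between 209.8 and 553 in sulcus and between 67.0 and 210.2 in culm, so the sums overlapped between the tissues. Of the 10, 6 were lower in the culm in 3 of 3 pairs, and 3 did so without overlap, against 2.22% of the unigenes kept. Of these 3, 1 did not pass the filter. A count of 0 in at least 1 library occurred for 3 of 10, of which 1 had reads only in the culm libraries (1, 0 and 31). The log2 ratio of the sum was −1.005, −1.65 and −1.397 in pairs 1 to 3. A unigene matched to a bamboo mitochondrial genome had a log2 ratio of −2.84 ± 1.14 (SD, n = 3 pairs). It rests on few reads, 19, 14 and 48 in the sulcus libraries and 2, 5 and 5 in the culm libraries. The part of the bacterial and mitochondrial matches in the lower plastid levels of the culm was not tested.

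The profiles most like that of the 4 together included other plastid sequences. Likeness was the distance between the centered log2 CPM over the 6 libraries and the mean profile of the 4, among 31716 unigenes. Most of the members' sum of squares lies between the tissues, and the plastid list was selected on that contrast too, so likeness largely restates the selection and is given as a description. Of the 10 nearest, 5 were in the list of plastid matches. The nearest of all was *matK* (distance 0.452), the maturase of plastid introns, followed by *rps4* (0.665), a protein of the small ribosomal subunit, and *psbK* (0.747) of photosystem II, while *ndhK* stood at 0.892. The 4 unigenes themselves lay between 0.690 (*ndhD*) and 0.984 (*rbcL*) from their own mean. Among the other 5 was a unigene matched to the chloroplast protein CRS2-associated factor 1 (Cluster-4806.9489, distance 0.877), which is coded in the nucleus and in maize takes part in splicing plastid introns. Its sulcus levels were 13.3, 16.2 and 10.6 CPM and its culm levels 1.32, 2.31 and 3.95 CPM. That its tissues did not overlap is favored by its choice for likeness to the 4 unigenes. The remaining 4 were a retrotransposon-like sequence, a match to a cytochrome P450-like mRNA and 2 without a gene name.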

How the data were processed

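Total RNA was extracted, and libraries made from it were sequenced as 150 bp paired-end Illumina reads. The study's methods do not say whether RNA was selected by poly(A) tails. Plastid RNA may thus be captured only in part, and its CPM may not compare with that of nuclear unigenes. The authors filtered and assembled the reads with Trinity 2.8.4, grouped contigs with Corset, and deposited estimated counts per unigene, without normalization or pooling; what counted the reads was not given in the sources used here. The study's own fold changes and p-values were not used. Counts were rounded and fitted in R 4.3.3 with edgeR 4.0.16 (filterByExpr, minimum count 10, TMM factors 0.949 to 1.05, quasi-likelihood test, Benjamini-Hochberg adjustment over all unigenes kept). The replicate number was tested beside the tissue. DESeq2 1.42.0, limma 3.58.1 (voom), other scalings, filters and pseudocounts and left-out libraries were alternatives. Pair ratios used CPM from column sums without a pseudocount. Same-numbered libraries deviated together from their tissue means (r = 0.713, 0.620 and 0.798), so the numbers were taken as pairs, from the values and not from a label. The fits were tested on simulated data. Unigenes were named by rule: the 4 unigenes, the other NDH and carbon fixation unigenes, plastid unigenes higher in the culm and the 10 nearest profiles. *psbM*, *psaA* and the mitochondrial match were named after their values were seen. Members and lists were chosen with earlier results of these data known. Annotation was at hand only for unigenes the study listed.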

Additional observations from a re-analysis of the deposited data

How the results depend on the processing

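Over 89 alternative values of the pair ratios, fold changes and the spread between the 4 unigenes, all kept their direction and 88 moved by less than the SD between pairs. The exception was *ndhD*, whose log2 fold change was −2.51 without sulcus replicate 3, with a range of −3.02 to −2.51 when each library was left out. Leaving out 1 of 3 pairs cannot move a mean pair ratio by the SD of those pairs, so such values could only count as unmoved. The mean pair ratio of *rbcL* counted as unmoved at −1.54 without replicate 1, against −2.10 over all pairs. With the replicate number as a block the log2 fold change of *ndhD* was −2.80, and the block changed no direction. The number of unigenes that differed between replicate numbers was 1 of 4 with edgeR and with limma voom, 0 with DESeq2 (1 at an unadjusted p under 0.05), and 0 to 2 when each library was left out. Over all unigenes kept, 9665 differed between replicate numbers, and 6263 to 13206 did when each library was left out, with 6263 without culm replicate 2 and 6408 without sulcus replicate 2. The median within-tissue correlation was 0.84 without replicate 2 and −0.022 without replicate 1, with 4 libraries left in each. The causes were not tested. Low counts limit *rbcL* and *ndhF* most, with 13 to 47 culm reads, where 1 read is at most 0.0530 CPM.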

Other observations

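The ratio of *ndhD* to *atpA* counts within a library was 0.820, 0.867 and 1.47 for the sulcus libraries, in the order of their numbers, and 0.892, 1.52 and 0.866 for the culm libraries. Sulcus replicate 3 and culm replicate 2 thus stood apart from the other 4 libraries, in different tissues and different pairs.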
